A study of Rattus norvegicus with 6 samples.

Results

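Pax2, Pax8, Lhx1, Sox4, Sox9, Sox11 and Foxc1, 7 transcription factor genes of the developing kidney, were examined in kidneys of Han:SPRD rats, a strain with chronic progressive polycystic kidney disease. Kidney RNA samples of heterozygous Cy/+ males (n = 3 samples), which carry a mutation in Anks6 on 1 allele, were compared with those of wild-type +/+ males (n = 3 samples), with 1 oligonucleotide array for each sample and no treatment in either group. No source used here says whether each sample came from a rat of its own. The sample labels give an age of 10 weeks for all rats, whereas the methods of the study give a younger one. Probe sets were assigned by the gene symbol of the platform annotation, and those with several symbols were left out. This gave 14 of 31099 probe sets for 6 of the 7 genes, out of 14217 genes named by 1 symbol. No probe set was assigned to Sox9 alone, and neither Sox9 nor Anks6 was analysed here. Signals are linear intensities in arbitrary units. Signals of different probe sets are not comparable with each other, so that only the genotypes are compared.

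Pax2 and Pax8 encode paired-box factors that together specify the nephric lineage, and Pax8 stays expressed in adult tubular epithelium. Lhx1 encodes a LIM homeodomain factor needed for the nephric duct and for patterning of the early nephron. Sox4 and Sox11 belong to the SoxC group of HMG-box factors, which is active in many embryonic tissues, the developing kidney included. Sox9 is switched on in injured tubules during repair, and Foxc1 encodes a forkhead factor of the embryonic mesenchyme around the nephric duct. Pax2, Pax8 and Lhx1 are treated below as nephron lineage factors, and the Sox genes and Foxc1 as fetal or repair factors. All of them are active in the embryo, and the grouping is one of convenience.

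Sox4 was 3.93-fold, Pax2 2.38-fold and Pax8 1.36-fold upregulated in Cy/+ compared with +/+ kidneys, while Foxc1 was at least 1.55-fold lower and Lhx1 did not pass the test. Each gene was represented by its brightest probe set. Only probe sets whose average over all arrays reached a log2 signal of 6.28, a linear signal of 77.8, were tested. Of the 3 lineage factors, 2 were higher and 1 did not pass. Of the 4 fetal or repair factors, Sox4 was higher, Foxc1 was lower, Sox11 lay under the filter and Sox9 had no probe set. Thus 3 of the 5 tested genes were higher and 1 was lower by limma at an adjusted p of 0.05. The lower one, Foxc1, passed the filter only through its +/+ arrays, where it was brighter. Of all 10645 tested genes, 37.4% were higher and 29.3% lower by the same rule, so that a call by itself does not set these genes apart from the rest. In 4 of the 5 tested genes, Foxc1 among them, no Cy/+ array overlapped with a +/+ array, as in 74.6% of all tested genes. In whole kidney RNA, fewer cells of a type and less RNA per cell cannot be told apart.

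**Figure D1:**
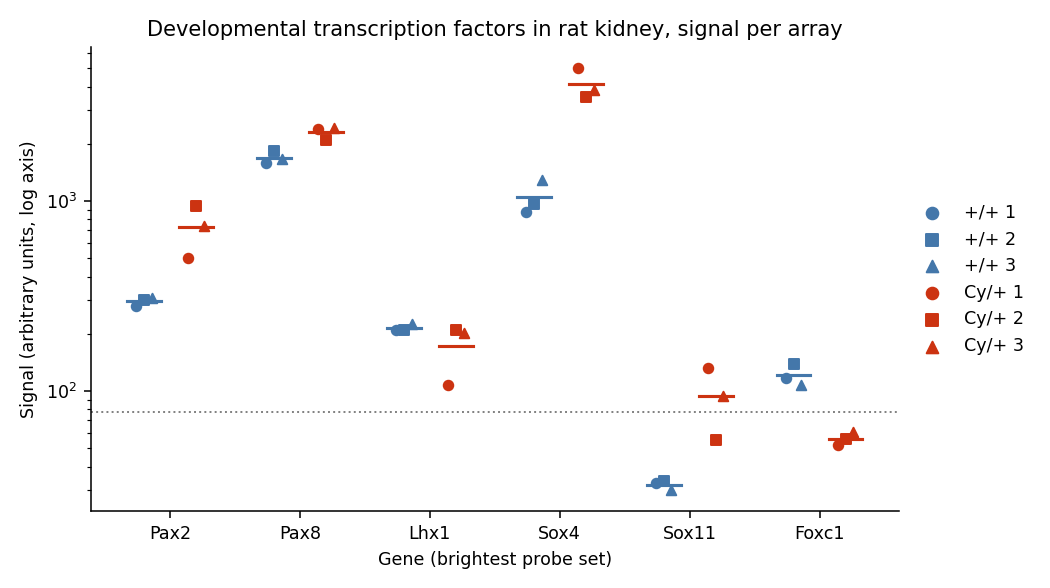
The brightest probe set of 6 genes, as signal per array (arbitrary units, log axis), with a symbol for each replicate (blue +/+, red Cy/+), bars at the genotype means and a dotted line at the signal of 77.8 that the mean had to reach for testing. The Cy/+ arrays of Pax2, Pax8, Sox4 and Sox11 lie above all +/+ arrays, those of Foxc1 lie below, and those of Lhx1 overlap with +/+.

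The arrays differed in several ways that touch these values. Any pair of +/+ arrays correlated at 0.997, any pair of Cy/+ arrays at 0.982 to 0.990 and arrays of different genotypes at 0.907 to 0.940 (Pearson r across log2 signals of all probe sets but the controls, a description only). The 3' control probe set of Actb divided by its 5' one, a measure of RNA and labeling quality, ran from 3.05 to 3.53 in Cy/+ and from 1.50 to 1.52 in +/+ arrays, and the same quotient of Gapdh from 1.74 to 1.92 and from 1.15 to 1.22. Cy/+ replicate 1 had the lowest summed signal of 12 collecting duct markers (10631, against 29373 and 21366 in Cy/+ replicates 2 and 3) and the highest of 12 fibroblast and pericyte markers (42806, against 21435 and 23177). Among the Cy/+ arrays it was also highest for the summed immune, endothelial, podocyte and repairing tubule markers. It was lowest for those of the loop and distal tubule and of cycling cells. The part of these differences in the results below was not tested. Without this array no call of a tested probe set of the 7 genes changed, and its fold changes are given below.

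The stretches before the transcription start of 4 genes that differed between the genotypes or lay apart are shown to give their genomic context. They are the 250 bases before the start given by RefSeq on assembly GRCr8 and are written in the direction of the gene. The set of such stretches used here held an entry for 5 of the 7 genes, and none for Sox4 or Sox9. Capitals mark matches on either strand to either of a pair of motifs searched, the CCAAT box, spelled by its name, and the GC box with the letters GGGCGG. The TATA box, taken as TATAAA, and a core of Sox sites were searched as well, the latter with the letters AACAAT. No match overlapped another.
Pax2, chr1:253565672-253565921, plus strand: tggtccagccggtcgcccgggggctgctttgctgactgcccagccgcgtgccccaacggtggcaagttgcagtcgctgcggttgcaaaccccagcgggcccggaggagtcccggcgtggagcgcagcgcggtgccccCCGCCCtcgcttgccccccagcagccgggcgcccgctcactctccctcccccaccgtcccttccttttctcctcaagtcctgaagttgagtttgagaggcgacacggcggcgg
Pax8, chr3:27640632-27640881, minus strand: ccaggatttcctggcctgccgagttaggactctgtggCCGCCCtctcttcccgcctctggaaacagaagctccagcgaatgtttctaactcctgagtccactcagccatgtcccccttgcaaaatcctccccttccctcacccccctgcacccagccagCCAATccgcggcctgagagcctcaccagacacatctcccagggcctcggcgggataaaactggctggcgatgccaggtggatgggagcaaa
Sox11, chr6:49738795-49739044, minus strand: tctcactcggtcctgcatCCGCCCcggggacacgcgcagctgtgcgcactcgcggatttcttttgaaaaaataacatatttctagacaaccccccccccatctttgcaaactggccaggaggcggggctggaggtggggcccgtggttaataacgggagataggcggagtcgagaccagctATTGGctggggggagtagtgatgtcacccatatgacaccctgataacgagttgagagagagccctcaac
Foxc1, chr17:32844101-32844350, minus strand: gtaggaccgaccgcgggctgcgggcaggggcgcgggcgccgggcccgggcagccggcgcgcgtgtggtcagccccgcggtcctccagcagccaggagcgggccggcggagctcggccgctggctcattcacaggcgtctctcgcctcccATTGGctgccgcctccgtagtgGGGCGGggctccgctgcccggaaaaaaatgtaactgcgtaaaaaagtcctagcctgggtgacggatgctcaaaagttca
A CCAAT box lay 91 bases before the start of Pax8 on the sense strand, and on the opposite strand 69 bases before that of Sox11 and 101 before that of Foxc1 (counted from its first printed base). Among 33465 such stretches 34% held this motif. All 4 stretches, and that of Lhx1, held a GC box, as did 30.5% of all. None of the 5 held TATAAA (12.9% of all) or AACAAT (10.3%). The share of G and C was 71.2% for Pax2, 60.8% for Pax8, 56.8% for Sox11 and 70% for Foxc1, against a median of 51.2% over all stretches. A match is a description of the letters and not a site of binding.

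Pax2 rose in every Cy/+ kidney. Its signal was 502.4, 937.7 and 743.1 in Cy/+ replicates 1 to 3 and 278.9, 300.7 and 308.9 in +/+ replicates 1 to 3. The lowest Cy/+ array lay above the highest +/+ array, and the spread was wider in Cy/+ (728 ± 218, SD, n = 3) than in +/+ kidneys (296 ± 15.5, SD, n = 3). The log2 fold change was 1.25 (standard error 0.21, adjusted p = 0.00168 from limma). Without Cy/+ replicate 1 it was 1.50. The 3 Cy/+ arrays of Pax2 had the order of the summed collecting duct markers, of which 1 of 11 tested was higher (Aqp4), 1 lower (Slc26a4) and 9 did not pass. Their sum ran from 10631 to 29373 in Cy/+ and from 13970 to 15681 in +/+ kidneys. The summed cycling cell markers had the same order, at 3458, 3893 and 3623 in Cy/+ replicates 1 to 3. The part of collecting duct or cycling cells in the level of Pax2 was not tested.

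Pax8 rose by its brighter probe set and did not pass by the other. The signal of the brighter one was 2398, 2089 and 2429 in the Cy/+ and 1576, 1838 and 1660 in the +/+ arrays, with no overlap. By limma it was higher by 0.45 on the log2 scale (standard error 0.10, adjusted p = 0.00518), rising from 1691 ± 134 to 2305 ± 188 (SD, n = 3 each), and by 0.42 without Cy/+ replicate 1. The other probe set gave 736.1, 640.6 and 872.4 in Cy/+ and 869.6, 941.6 and 780.9 in +/+ kidneys, and the genotypes overlapped. Its log2 fold change was -0.21 (95% confidence interval -0.53 to 0.10, adjusted p = 0.191 from limma), and -0.20 without Cy/+ replicate 1. The ratio of the first probe set to the second was 2.78 to 3.26 in Cy/+ and 1.81 to 2.13 in +/+ arrays, so that both did not change alike. With the mean of both probe sets in place of the brighter, the log2 fold change of Pax8 was 0.12 and did not pass (adjusted p = 0.366 from limma). The 3' to 5' quotients of the controls differed between the same arrays, and their part in the gap was not tested.

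Lhx1 did not pass the test. Its signal was 107.9, 210.1 and 200.9 in Cy/+ and 209.5, 209.7 and 226.5 in +/+ kidneys. Cy/+ replicates 2 and 3 lay near the +/+ arrays and Cy/+ replicate 1 well below them. By limma the log2 fold change was -0.38 (standard error 0.25, 95% confidence interval -0.96 to 0.21, adjusted p = 0.212), and -0.07 without Cy/+ replicate 1 (adjusted p = 0.529). The summed collecting duct markers of Cy/+ replicate 1 were also the lowest of all arrays, as were those of 10 markers of the loop and the distal tubule (23071, against 24188 and 37653 in the other Cy/+ arrays and 35315 to 37931 in +/+). Their part in the low value was not tested.

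Sox4 showed the largest fold change of the tested genes of this group. The brightest of its 7 probe sets had a signal of 4983, 3518 and 3826 in Cy/+ and 879.2, 967.8 and 1297 in +/+ kidneys. Each Cy/+ array lay far above the +/+ arrays. By limma it was higher by 1.98 on the log2 scale (standard error 0.18, adjusted p = 0.000115), rising from 1048 ± 220 to 4109 ± 772 (SD, n = 3 each), and by 1.83 without Cy/+ replicate 1.

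The other probe sets assigned to Sox4 differed in size. The second brightest gave 2369, 2560 and 2377 in Cy/+ and 278.7, 363.6 and 459.5 in +/+ kidneys, and by limma it rose by 2.76 on the log2 scale (standard error 0.17, adjusted p = 3.45e-05). The third gave 1766, 752 and 806.6 in Cy/+ and 137.9, 206.1 and 274.2 in +/+ kidneys, a log2 fold change of 2.37. In both the genotypes did not overlap, and in the latter the Cy/+ arrays were spread over a wide range with replicate 1 at the top. The fifth had the opposite order of Cy/+ arrays, with 360.5, 793.2 and 574 in Cy/+ and 219.8, 212.8 and 209.3 in +/+ kidneys and a log2 fold change of 1.36. The fourth was higher by 0.76 (limma, adjusted p = 0.00558). Without Cy/+ replicate 1 the second to the fifth probe set gave log2 fold changes of 2.78, 1.97, 0.75 and 1.66. Thus all 5 tested probe sets were higher with and without this array, against 35.8% of all tested probe sets, although they belong to 1 gene and are not independent. The ratio of the second to the fourth was 4.70 to 6.34 in Cy/+ and 1.12 to 1.59 in +/+ arrays, so that probe sets of 1 gene did not change alike. The remaining pair lay under the filter, the sixth at 42.52 to 51.11 in Cy/+ and 56.33 to 64.58 in +/+ kidneys, the reverse direction, and the seventh at 19.38 to 22.47 and 14.71 to 16.87. With no filter the adjusted p from limma was 0.019 for the sixth, which was lower in Cy/+ kidneys, and 0.00471 for the seventh, which was higher.

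**Figure D2:**
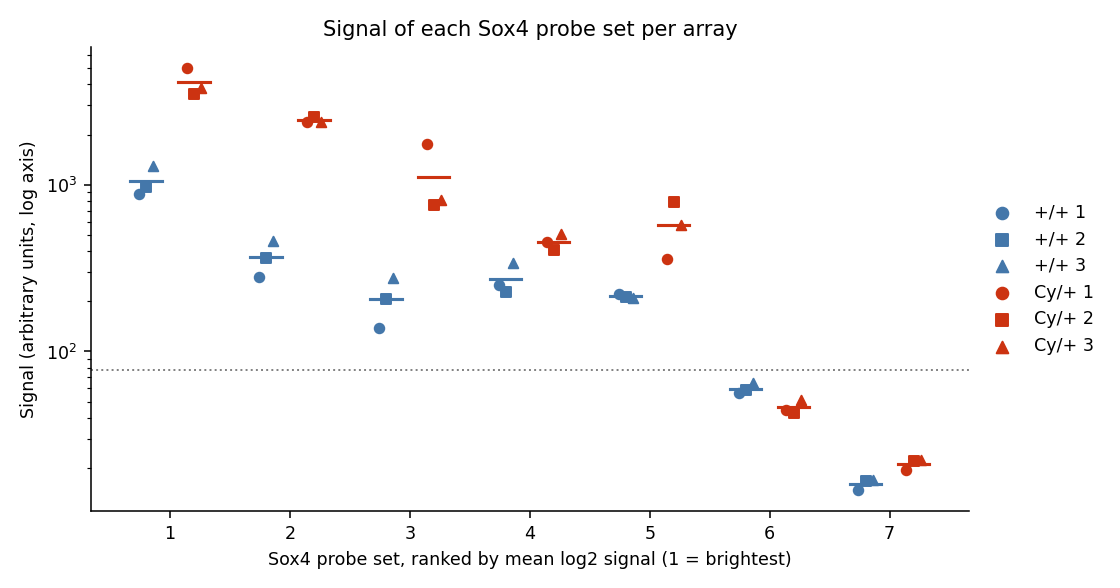
The 7 probe sets assigned to Sox4, ranked by mean log2 signal, as signal per array (arbitrary units, log axis), with a symbol for each replicate (blue +/+, red Cy/+), bars at the genotype means and a dotted line at the filter signal of 77.8. Cy/+ replicate 1 is the highest Cy/+ array for the first and the third probe set and the lowest for the second, the fifth and the seventh, and the 2 dimmest lie below the line in both genotypes.

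Sox11, the closest relative of Sox4 on these arrays, was dim. Its single probe set gave 131.8, 55.57 and 93.66 in Cy/+ and 32.97, 33.46 and 30.07 in +/+ kidneys. All Cy/+ arrays lay above all +/+ arrays, but Cy/+ replicate 2 lay below the filter signal of 77.8. Its log2 signal averaged 5.73, and it was therefore not tested. The mean over the Cy/+ arrays, taken on the log2 scale, was 1.13 times the filter signal. With that signal in place of the lower +/+ values, Sox11 was at least 1.13-fold higher in Cy/+ kidneys. Without Cy/+ replicate 1 the Cy/+ mean lay below the filter signal as well, and no fold is given. With no filter the adjusted p from limma was 0.00287. The third SoxC gene, Sox12, had signals of 19.33 to 21.98 in Cy/+ and 22.27 to 24.65 in +/+ kidneys, all far under the filter.

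Sox11 and 2 of the 5 tested Sox4 probe sets were highest in Cy/+ replicate 1, where the fibroblast and pericyte markers were highest as well. Among the Cy/+ arrays this one also had the highest summed immune, endothelial, podocyte and repairing tubule markers. Relative to the mean of the other Cy/+ arrays it stood at 1.77 times for Sox11 and at 1.92 times for the summed fibroblast and pericyte markers. For the summed immune, endothelial, podocyte and repairing tubule markers it stood at 1.22, 1.26, 1.16 and 1.01 times. For the Sox4 probe sets, from the brightest to the fifth, it stood at 1.36, 0.96, 2.27, 1.00 and 0.53 times, so that they did not share 1 order of the Cy/+ arrays. In Cy/+ kidneys 7 of 9 tested fibroblast and pericyte markers rose and none fell, while 37.4% of all tested genes rose and 29.3% fell. The sum of these markers over 12 genes ran from 21435 to 42806 in Cy/+ and from 8483 to 9965 in +/+ kidneys. Markers of repairing tubules were higher for 14 of 15 tested genes, Havcr1 and Lcn2 among them, with a sum of 91336 to 92764 in Cy/+ and 17214 to 20215 in +/+ kidneys. Spp1, Cd24 and Clu made up 53.4% of that sum in Cy/+ kidneys, and single markers differed among the Cy/+ arrays, with Havcr1 at 5431, 1578 and 2420 and Krt19 at 2750, 7245 and 5963 in replicates 1 to 3. Immune markers were higher for 7 of 9 tested genes (22755 to 29019 in Cy/+, 13558 to 15443 in +/+). Of the 8 whose mean reached the filter signal in both genotypes 6 were higher, and Cd3e passed the filter only through its Cy/+ arrays. Among the cycling cell markers 3 of the 5 whose mean reached the filter signal in both genotypes were higher, and 3 others passed the filter only through their Cy/+ arrays. Pcna, which did not pass the test, made up 58.2% of the summed cycling cell markers in Cy/+ kidneys (3458 to 3893 in Cy/+, 2824 to 2895 in +/+). No marker of these lists was at 0. The part of these cells in the levels of Sox4 and Sox11 was not tested.

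**Figure D3:**
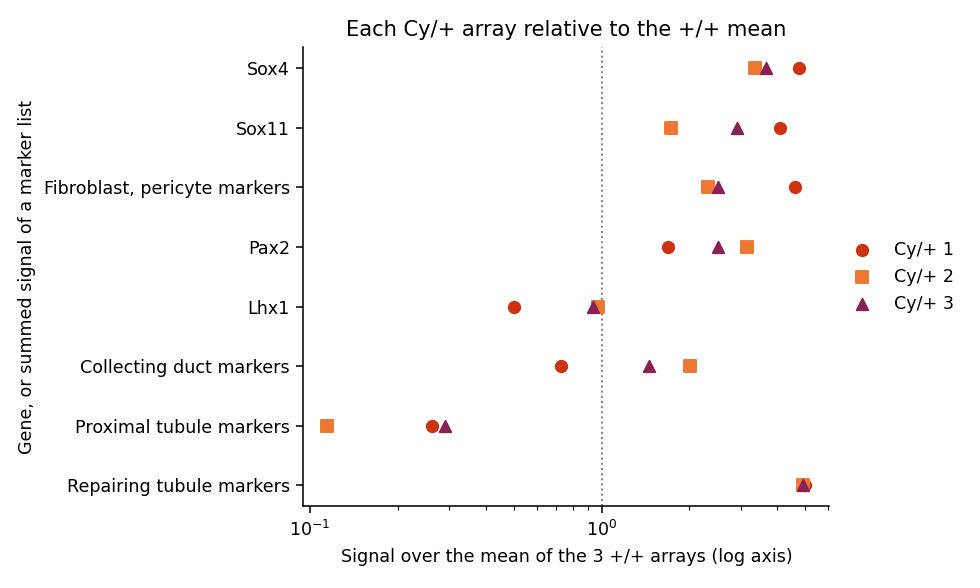
Signal of each Cy/+ array divided by the mean of the 3 +/+ arrays, on a log axis, for 4 genes and for the summed signal of 4 marker lists, with a symbol for each replicate and a dotted line at 1. Cy/+ replicate 1 is the highest for the brightest Sox4 probe set, Sox11, the fibroblast and pericyte markers and, by little, the repairing tubule markers. It is the lowest for Pax2, Lhx1 and the collecting duct markers.

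Foxc1 fell in Cy/+ kidneys by both of its probe sets (31.3% of all tested probe sets were lower). The brighter gave 51.7, 56.18 and 60.77 in Cy/+ and 117.7, 139 and 107.7 in +/+ kidneys. The genotypes lay apart, every Cy/+ array was below the filter signal, and the probe set was tested only through its +/+ arrays, as was the second. The fold is therefore given as a bound, at least 1.55-fold (adjusted p = 0.00026 from limma), and the measured means were 121 ± 16 in +/+ and 56.2 ± 4.5 in Cy/+ kidneys (SD, n = 3 each). The second probe set gave 61.54, 63.5 and 67.95 in Cy/+ and 103.4, 96.14 and 87.32 in +/+ kidneys, at least 1.23-fold lower (adjusted p = 0.00214 from limma). Both bounds rest on the +/+ arrays alone, since every Cy/+ array was set to the filter signal, so that leaving out Cy/+ replicate 1 could not change them. Without that array the measured log2 fold changes were -1.05 and -0.54. Its paralog Foxc2 did not pass, with 89.66, 105.8 and 82.82 in Cy/+ and 97.79, 95.19 and 103.3 in +/+ kidneys. Foxc1 is also active in podocytes and endothelium, and 4 of 6 podocyte markers (2 were higher) and 6 of 9 endothelial markers (none higher) were lower. Of all tested genes 29.3% were lower and 37.4% higher. The summed endothelial markers ran from 4397 to 5791 in Cy/+ and from 8388 to 9101 in +/+ kidneys, and the summed podocyte markers from 3757 to 4723 and from 3962 to 4413. Synpo, which was higher, made up 54.1% of the podocyte sum in Cy/+ kidneys. Together with Cdkn1c (higher) and Podxl (lower) it made up 91.7%, so that the sum says little about the other podocyte markers. The part of podocytes and endothelium in the level of Foxc1 was not tested.

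**Figure D4:**
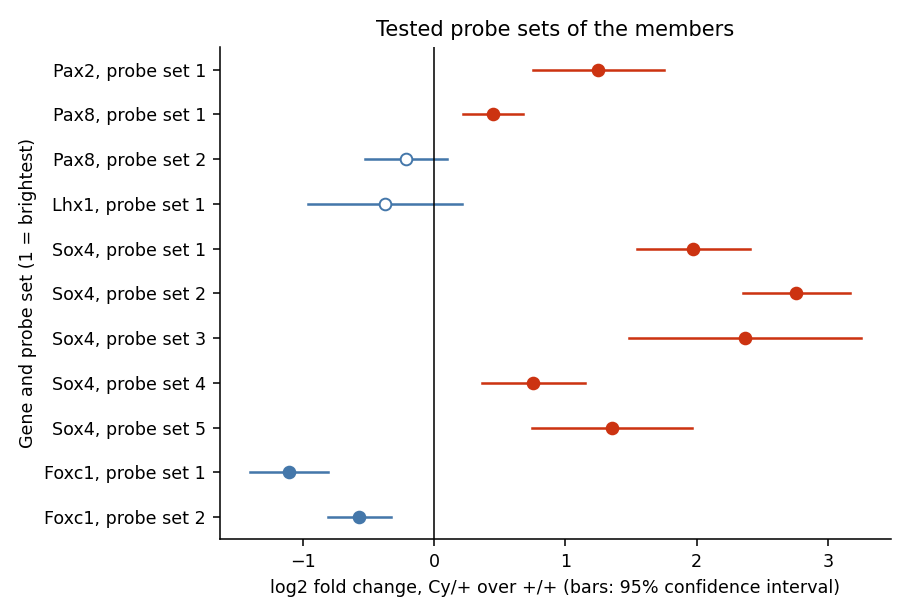
Log2 fold change of Cy/+ over +/+ kidneys for the 11 tested probe sets, with 95% confidence intervals from limma. Filled points passed an adjusted p of 0.05, open points did not, and probe set 1 of each gene represents it. The Cy/+ means of both Foxc1 probe sets lay below the filter signal, so that their points are measured values and no exact folds.

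The profiles most like those of the tested genes were found among the 10644 other tested genes, as the smallest root-mean-square difference of log2 signals centred on their mean over the 6 arrays. For Pax2 these were Pgap2 (0.069) and Mbp (0.070), for Pax8 Trmt10b (0.036) and Glis2 (0.047), and for Lhx1 Veph1 (0.063) and Pik3r3 (0.068). For Sox4 they were Map3k1 (0.10) and Tes (0.11), and for Foxc1 Prim2 (0.046) and Tprkb (0.054). Glis2, a Krüppel-like zinc finger gene, gave 1388, 1251 and 1440 in Cy/+ and 927.4, 1123 and 1064 in +/+ kidneys. Map3k1, which encodes a kinase upstream of JNK, gave 6652, 5447 and 5227 in Cy/+ and 1186, 1362 and 1588 in +/+ kidneys.

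Among the listed tubule differentiation factors, the shares called were near those of all tested genes. Of 17 such genes with a probe set, 15 were tested, with 5 higher, 5 lower and 5 that did not pass, and a median log2 fold change of 0.02. Over all tested genes 37.4% were higher and 29.3% lower, with a median of 0.09. Among the lower were Hnf4a, a nuclear receptor that drives proximal tubule maturation, and Nr1h4, the bile acid receptor FXR. Hnf4a gave 2601, 1114 and 2482 in Cy/+ and 7889, 7641 and 7608 in +/+ kidneys, and fell by 2.00 on the log2 scale (standard error 0.30, limma adjusted p = 0.001), and by 2.21 without Cy/+ replicate 1. Nr1h4 gave 292.4, 234.6 and 255.8 in Cy/+ and 963.5, 845.4 and 952.8 in +/+ kidneys, a log2 fold change of -1.82. Both genes lay far apart between the genotypes. Maf (-1.45) and Emx1 (-1.42) were lower too, as was Irx3 (-0.35), named after its value was seen, which lost its call without Cy/+ replicate 2, +/+ replicate 1 or +/+ replicate 2 (-0.29, -0.38 and -0.25). All 15 tested markers of the proximal tubule fell in the same kidneys, 14 of them with a mean that reached the filter signal in both genotypes. Their summed signal was 16925 to 42714 in Cy/+ and 143817 to 151936 in +/+ kidneys. The part of this segment in the levels of Hnf4a and Nr1h4 was not tested.

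The 5 higher tubule factors were Tfcp2l1, Tfap2b, Emx2, Pou3f3 and Gata3. Tfcp2l1, a factor of collecting duct cells, gave 2783, 4488 and 3890 in Cy/+ and 2016, 1995 and 1928 in +/+ kidneys, and rose by 0.88 on the log2 scale (standard error 0.17, limma adjusted p = 0.00274). Tfap2b, needed for the distal tubule, gave 1233, 3110 and 3935 in Cy/+ and 695.7, 755.1 and 934.8 in +/+ kidneys, a rise of 1.65 on the log2 scale (limma adjusted p = 0.00869). Emx2, a homeobox gene of the ureteric bud epithelium, had a log2 fold change of 0.74 and Pou3f3, which acts in the loop of Henle, one of 0.45. Gata3, a regulator of the nephric duct and collecting duct named after its value was seen, had one of 1.23, with 679.8, 2209 and 1195 in Cy/+ and 517.6, 481.4 and 553.1 in +/+ kidneys. For these 5 genes no Cy/+ array overlapped with +/+, as for 74.6% of all tested genes. Without +/+ replicate 3, Pou3f3 (0.40) and Gata3 (1.28) did not pass, and Gata3 also lost its call without +/+ replicate 1 (1.24), +/+ replicate 2 (1.18) or Cy/+ replicate 3 (1.25). Without Cy/+ replicate 1, Irx1 (1.11) and Irx2 (0.94) passed as well, which made 7 higher factors. With all arrays Irx1, Irx2, Esrrb, Esrrg and Foxi1 did not pass. Among the Cy/+ arrays, Tfcp2l1, Gata3, Tfap2b and Emx2 were lowest in replicate 1, as Pax2 was, and so were the tested tubule factors that did not pass. Pou3f3 and the lower tubule factors were lowest in Cy/+ replicate 2.

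**Figure D5:**
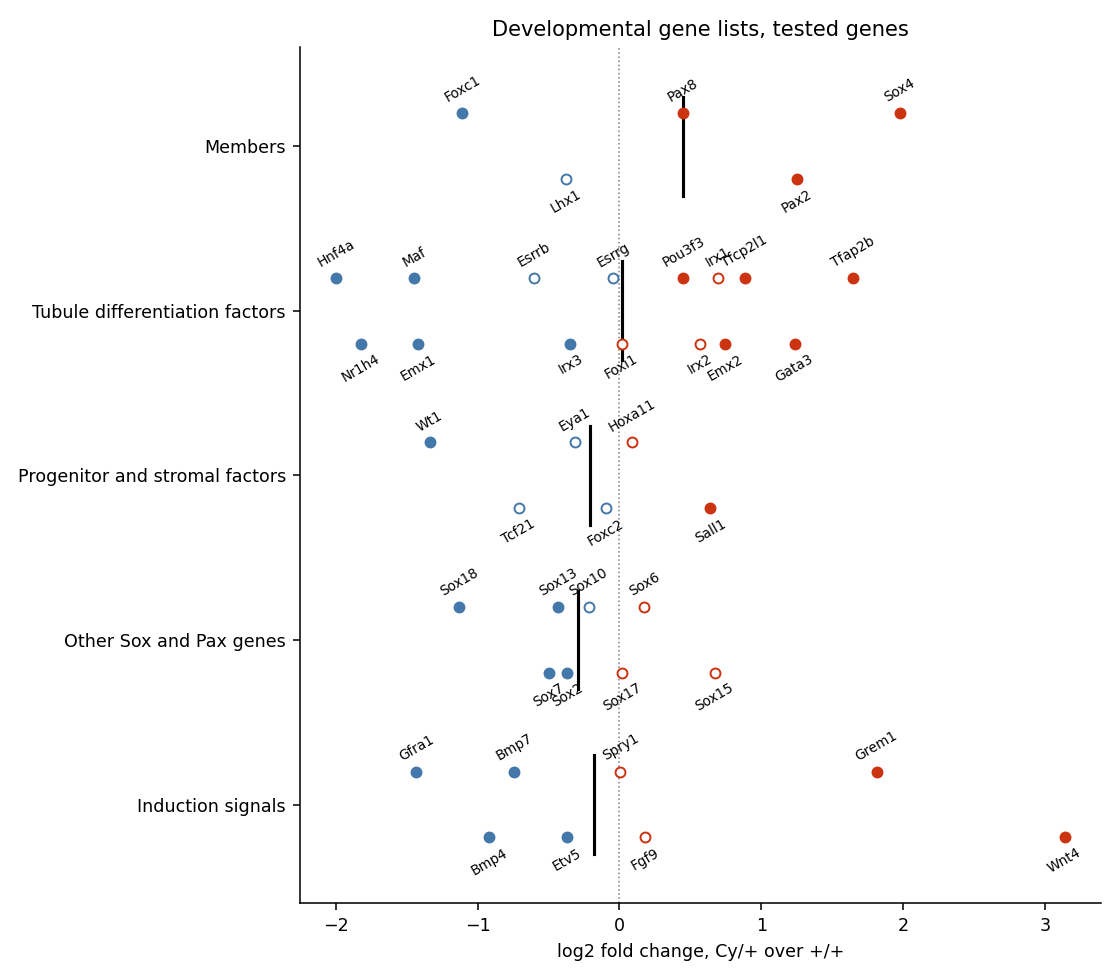
Log2 fold change of Cy/+ over +/+ kidneys for each tested gene of the 5 groups of developmental genes. Filled points passed limma at an adjusted p of 0.05, open points did not, and black bars are the medians. Foxc1 in Cy/+ and Wnt4 in +/+ kidneys had a mean below the filter signal, so that their points are measured values and no exact folds. Tubule differentiation factors lie from -2.00 to 1.65 on both sides of 0.

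Other genes of the embryonic nephron showed no common direction. Of 9 nephron progenitor and stromal factors with a probe set, 6 were tested, with 1 higher, 1 lower and 4 that did not pass (median log2 fold change -0.20). The higher one was Sall1, a zinc finger gene of the nephron progenitors (0.64, adjusted p = 0.00245 from limma), at 730.5, 777.4 and 957.8 in Cy/+ and 493.8, 540 and 539.5 in +/+ kidneys. The lower one was Wt1, which in the adult kidney is a podocyte gene and is also among the podocyte markers (-1.34, adjusted p = 0.00143 from limma), at 119.1, 112.1 and 65.82 in Cy/+ and 249.2, 234.8 and 242.8 in +/+ kidneys. Of all tested genes 37.4% were higher and 29.3% lower. By limma, none of 8 other Sox and Pax genes rose (0), while 4 fell and 4 did not pass. The counts were also 0 and 4 by limma without adjustment, and 0 and 3 by the methods' t-test without adjustment. The lower genes were Sox18 (-1.13) and Sox7 (-0.50), which act in endothelium, Sox2 (-0.37) and Sox13 (-0.43). Sox17, another endothelial Sox gene of this list, did not pass (0.02, adjusted p = 0.921 from limma). Sox7 kept its call only without Cy/+ replicate 1, when 1 array was left out at a time, and Sox13 lost its call without +/+ replicate 1 or +/+ replicate 2, which left 2 lower genes of this list. Without Cy/+ replicate 1, Tcf21 was lower (-1.21) and Sox15 higher (1.03), so that there were 2 lower progenitor and stromal factors and 1 higher other Sox gene. All 4 Pax genes with a probe set besides Pax2 and Pax8 lay under the filter, from 14.65 to 33.69 in every array.

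The signals that induce nephrons had 8 tested genes, among them 2 higher, 4 lower and 2 that did not pass (median log2 fold change -0.18). Of all tested genes 37.4% were higher and 29.3% lower. Wnt4, whose product drives the change of mesenchyme into epithelium, gave 79.51, 1131 and 396.5 in Cy/+ and 37.87, 32.72 and 42.1 in +/+ kidneys. It was at least 4.23-fold higher (adjusted p = 0.0133 from limma), since the +/+ arrays lay below the filter signal, and was tested only through its Cy/+ arrays. The bound rests on single arrays, at 8.60-fold without Cy/+ replicate 1, 2.28-fold without Cy/+ replicate 2 and 3.85-fold without Cy/+ replicate 3. Its Cy/+ arrays had the order of Pax2 and of the summed collecting duct and cycling cell markers. Grem1, an antagonist of bone morphogenetic proteins, gave 580.6, 1780 and 1610 in Cy/+ and 289.5, 361.9 and 365.7 in +/+ kidneys, a rise of 1.81 on the log2 scale (limma adjusted p = 0.00577). The ligand genes Bmp7 (-0.74) and Bmp4 (-0.92), the GDNF co-receptor gene Gfra1 (-1.43) and the ETS factor gene Etv5 (-0.37) were lower. Gdnf and Ret lay under the filter in both genotypes, at 23.08 to 28.92 and 49.61 to 73.39. Without +/+ replicate 2, Bmp4 (-0.82) and Etv5 (-0.34) lost their calls, which left 2 lower genes in this list.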

How the data were processed

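Kidney RNA of male rats, as 3 Cy/+ and 3 +/+ samples, was measured on Affymetrix rat genome arrays, 1 per sample. The authors analysed the array images with GCOS software, and the submitters' processing notes name MAS5. The deposited values are intensities on a linear scale from 10.65 to 32240, 1 per probe set. Their scaling between arrays is not given in the sources used here, and no detection calls were used, so that the number of arrays limits the precision. No source used here states that each sample came from a separate rat, and the spread behind each p-value is then that between samples, possibly technical.

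Values were taken to log2 without pseudocount or further scaling. The 57 control probe sets were left out of the tests, and the 18625 probe sets at or above the 40th percentile of mean log2 signal were tested with limma 3.58.1 in R 4.3.3 (lmFit, eBayes with intensity trend, no covariate), with p-values adjusted by Benjamini-Hochberg at 0.05. Gene symbols of the platform annotation (20832 probe sets with 1 symbol, 436 with several, 9831 with none) were updated through Entrez IDs with a table of assembly GRCr8, which matched 20764. For a genotype whose mean lay below the filter signal of 77.8, each of its arrays was set to at least that signal and the fold is a bound. The fit was tested on simulated arrays of 18625 probe sets, where it recovered 78% of 2-fold changes. Far fewer probe sets were changed in the simulation than were called in the data, so that this share does not carry over to them. The genes and lists were chosen with earlier results of these data known. From each list that is not a marker list, up to 4 genes of smallest adjusted p each way were named. Alternatives changed the normalization, low signals, filter, variance model, test, replicate block and probe set choice, or left out each array in turn. The values of single probe sets, those of each listed gene with 1 array left out, and marker calls above the filter in both genotypes were added after the data were seen. Marker lists gave sums of signals only as a description.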

Additional observations from a re-analysis of the deposited data

How the results depend on the processing

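Pax2, Sox4 and Foxc1 kept their direction and their call in every alternative that tested them (19, 19 and 18). Foxc1 passed the main filter only through its +/+ arrays, so that its fold changes here are measured values and no exact folds. The log2 fold change ran from 1.05 to 1.50 for Pax2, from 1.83 to 2.14 for Sox4 and from -1.19 to -0.84 for Foxc1, with adjusted p values up to 0.0198, 0.00477 and 0.00479 (unadjusted in 1 of the alternatives). Pax8 ran from 0.12 to 0.55 and lost its call with the mean of its probe sets. Lhx1 ran from -0.55 to -0.07 and passed in none (adjusted p 0.0972 to 0.529). With no filter 4 genes were higher, Sox11 among them. With a filter at the 60th percentile Foxc1 and Lhx1 were not tested, and 0 genes were lower. That filter also left 1 higher and 2 lower induction signals, 0 lower progenitor and stromal factors and 2 lower genes among the other Sox and Pax genes. With no filter there were 2 higher and 2 lower progenitor and stromal factors. With array quality weights 2 progenitor and stromal factors were lower and 1 other Sox or Pax gene was higher. By the methods' t-test after Benjamini-Hochberg adjustment there were 3 higher tubule differentiation factors, 1 higher induction signal and 1 lower gene among the other Sox and Pax genes. When each array was left out in turn, the higher tubule differentiation factors numbered 3 to 7, the other Sox and Pax genes 0 to 1 higher and 2 to 4 lower, the lower progenitor and stromal factors 1 to 2 and the lower induction signals 2 to 4. The causes were not tested, except that a stricter filter tests fewer genes.

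The replicate numbers are shared by the genotypes, but no source says that they pair the samples. The deviations of samples with the same number from their genotype mean correlated at 0.15, -0.11 and -0.15 (across probe sets, which are not independent), and 1 of the 3 +/+ samples correlated best with its own number. With the replicate block 6293 probe sets were higher and 5340 lower, against 6661 and 5830 without it, 3 of the genes were higher and 1 lower as before, and 2 of the other Sox and Pax genes were lower.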

Other observations

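Several developmental genes whose mean lay under the filter for testing had arrays that did not overlap between the genotypes, as did 63.4% of all probe sets without a filter. Those given below were chosen after their values were seen. Others of the same lists were Hoxd11, Pax4, Pax9, Sox12, Sox21, Gdnf, Wnt11 and Lgr5, all lower in Cy/+ kidneys, and Sox11, which was higher. Etv4, an ETS factor gene downstream of Ret in the ureteric bud, gave 115.4, 104.2 and 116.6 in Cy/+ and 43, 37.24 and 42.38 in +/+ kidneys, while Etv5 was lower in the same arrays. Meox1, a homeobox gene of the embryonic mesoderm, gave 68.18, 55.91 and 43.89 in Cy/+ and 29.32, 27.55 and 26.21 in +/+ kidneys, with its highest value in Cy/+ replicate 1, as for Sox11 and the brightest Sox4 probe set. Ppara, a nuclear receptor gene of fatty acid oxidation, gave 35.63, 29.28 and 32.5 in Cy/+ and 67.13, 52.45 and 50.8 in +/+ kidneys. All signals of Meox1 and Ppara lay below 77.8, so that no fold is given for either.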
